A study of Mus musculus with 2 samples.

Results

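The 10 genes described here encode chemokines that cells of the osteoblast lineage can make: Ccl2, Ccl7, Ccl20, Cxcl1, Cxcl2, Cxcl5, Cxcl12, Cxcl14, Cxcl16 and Cx3cl1. They were chosen by gene symbol from a table of 55487 gene rows, and each symbol stood on 1 row. Earlier results of these data were known when they were chosen. The RNA came from MC3T3-E1, a cell line derived from mouse calvaria and used as a model of the osteoblast, seeded at 25000 cells per cm2 and grown for 24 h in medium with 10% fetal bovine serum. The untreated library and the library given 10 nM parathyroid hormone (PTH) are both labelled 1 h, and each condition had 1 library. The labels name no vehicle for the untreated cells and do not say which form of PTH was used. Both libraries come from a single line held in one culture format, so they say nothing of other osteoblasts or of bone.

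Chemokines are small secreted or membrane-held proteins that draw cells along a gradient by binding G protein-coupled receptors on the cells that respond. The first cysteines of the mature protein divide them into classes. In the CC class these cysteines are adjacent, in the CXC class 1 residue lies between them, and in the CX3C class 3 residues do. CXC chemokines that carry glutamate, leucine and arginine just before the first cysteine (the ELR motif) attract neutrophils through CXCR2, while CC chemokines such as CCL2 attract monocytes through CCR2. In bone, CCL2 from osteoblasts is known as a PTH-responsive recruiter of osteoclast precursors, and CXCL12 holds blood stem cells in the marrow through CXCR4.

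The coding stretches around these cysteines are shown for the members with most reads and for the neutrophil-directed group, because the classes they define are the groups in which the results are given. Each runs from 6 codons before the first cysteine, covers 17 codons, lies in exon 2 and was read from the principal GENCODE M21 transcript (GRCm38, the assembly also called mm10, plus strand for all 7). Capitals mark the cysteine codons of the class and, where present, the codons of the ELR motif. Ccl2 is at chr11:82036488-82036538, Ccl7 at chr11:82046520-82046570, Cxcl1 at chr5:90891478-90891528, Cxcl2 at chr5:90904124-90904174, Cxcl5 at chr5:90759709-90759759, Cxcl12 at chr6:117171490-117171540 and Cx3cl1 at chr8:94778033-94778083.
Ccl2: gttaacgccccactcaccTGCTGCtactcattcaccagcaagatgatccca
Ccl7: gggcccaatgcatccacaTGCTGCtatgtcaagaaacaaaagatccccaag
Cxcl1: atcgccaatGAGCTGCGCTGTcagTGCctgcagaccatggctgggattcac
Cxcl2: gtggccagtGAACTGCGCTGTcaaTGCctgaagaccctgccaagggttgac
Cxcl5: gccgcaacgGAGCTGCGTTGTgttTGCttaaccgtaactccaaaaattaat
Cxcl12: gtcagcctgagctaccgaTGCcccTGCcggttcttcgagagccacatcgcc
Cx3cl1: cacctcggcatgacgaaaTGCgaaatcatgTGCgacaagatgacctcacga

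The column totals were 66302211 counts untreated and 70036872 after PTH. Of the 10 chemokine genes, 7 had a total of 20 or more counts over both libraries and were compared, as were 16408 rows in all. Counts were scaled by edgeR's TMM library sizes and are given as CPM, counts per 1000000. A difference is given as a ratio, the scaled count after PTH divided by the untreated one, with its 95% exact interval in brackets. The interval covers counting error only. With 1 library per condition there is no replicate check, no p-value was computed, and each value compares these libraries and not the conditions. Genes whose entire interval fell outside 1.5-fold are called past the rule of size, or past the rule. More cells making an RNA and more RNA per cell cannot be told apart in such bulk samples.

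Of the 7 chemokine genes compared, 4 had more reads after PTH past the rule, none had fewer and 3 were neither, against 5.39% of all compared rows with more reads, 3.54% with fewer and 8.93% in either direction. The 4 were Ccl2, Ccl7, Cxcl1 and Cxcl5, and the last 2 were listed at 0 in the untreated library. Over rows above 0 in both libraries, a restriction chosen after the data were seen, the count was 2 of 5, against 4.93% of all such rows. The median log2 ratio was 2.10 over the 7 and 0.69 over the 5, and 0.00 over all compared rows. The value of 2.10 rests on including Cxcl1 and Cxcl5, which reached 20 counts through the PTH library alone. Ccl20 and Cxcl14 were at 0 in both libraries, and Cxcl2 had 3 counts in all.

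**Figure D1:**
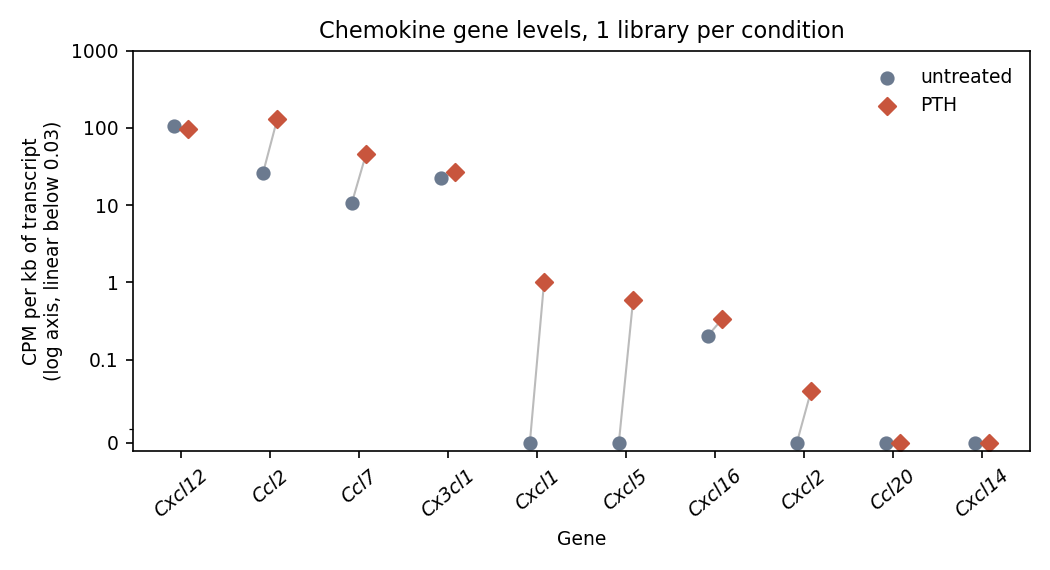
Level of each chemokine gene in the untreated library (circles) and the PTH library (diamonds), as CPM per kb of the principal transcript on an axis that is logarithmic above 0.03 and linear below it. Each point is 1 library, so there are no error bars. Ccl2 and Ccl7 are higher with PTH, Cxcl12 and Cx3cl1 lie close together in both, and Cxcl1, Cxcl5 and Cxcl2 are above 0 only in the PTH library.

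Ccl2 encodes monocyte chemoattractant protein 1, the main ligand of CCR2. It had 1408 counts untreated and 7243 after PTH, which is 20.97 and 104.7 CPM. The PTH library was thus 5.00-fold higher (4.72 to 5.29). The gene lies at chr11:82035571-82037453 on the plus strand, is protein-coding with 3 exons in its principal transcript, and shares no exonic sequence with another annotated gene.

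Ccl7, which encodes monocyte chemoattractant protein 3, starts 8.26 kb beyond the end of Ccl2 on the same strand, at chr11:82045712-82047525. It had 578 counts untreated and 2560 after PTH, or 8.61 and 37.0 CPM, and was 4.30-fold higher (3.93 to 4.72). Both CC genes thus had several times more reads with PTH, and by similar factors. The number of Ccl2 reads per Ccl7 read was 2.44 untreated and 2.83 after PTH, a ratio of 1.16 (1.04 to 1.29) that no scaling can change. That small difference is outside counting error, but the spread between cultures is unknown.

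The next genes of the chromosome 11 cluster encode related CC chemokines and had almost no reads. Ccl11, the eotaxin gene, had no counts untreated and 5 after PTH, and Ccl12, Ccl8 and Ccl1 were at 0 in both libraries. The reads of this cluster were therefore nearly all from Ccl2 and Ccl7. Gm17268, an annotated coding gene on the opposite strand that spans Ccl2, was at 0 in both libraries too. The remaining CC gene among the 10, Ccl20, encodes the ligand of CCR6, lies on chromosome 1 and was at 0 in both.

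Cxcl1, Cxcl2 and Cxcl5 encode the ELR chemokines that act on neutrophils, and lie in a cluster on chromosome 5. Cxcl1 (chr5:90891241-90893115) was at 0 in the untreated library and had 67 counts in the PTH library, which is 0.969 CPM. Cxcl5 (chr5:90759360-90761624), 129.6 kb before it, was at 0 untreated too, and had 64 counts with PTH, or 0.926 CPM. Cxcl2, which starts 10.8 kb beyond the end of Cxcl1, was listed at 0 and 3 counts and was too low to compare. Reads of this group were thus seen in the PTH library alone, at under 1 CPM for each gene.

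No fold is given for Cxcl1 and Cxcl5, because in both directions this table lists rows at 0 in one library that have many counts in the other. Of rows with 3 to 9 counts in the PTH library, where Cxcl2 stands, 1311 were listed at 0 untreated and 1947 were not. With 10 to 49 counts in the PTH library, 347 were listed at 0 untreated and 3105 were not. At 50 to 99 counts in the PTH library, where Cxcl1 and Cxcl5 stand, 6 rows were listed at 0 untreated and 1147 were not. In the other direction, 6 rows with 50 to 99 counts untreated were listed at 0 after PTH and 1039 were not. A listed 0 beside counts of this size was thus rare, and as frequent in one library as in the other. Cxcl1 and Cxcl5 make up 2 of the 6 such rows with PTH.

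Ppbp, which encodes pro-platelet basic protein, another ELR chemokine, is the gene next to Cxcl5, 6.89 kb beyond its end. It had 7 counts untreated and 92 after PTH, a ratio of 12.8 (5.95 to 32.6), and it was above 0 in both libraries. Its coding stretch in exon 2, at chr5:90769067-90769117 on the plus strand, shows the ELR and CXC codons in capitals as above.
Ppbp: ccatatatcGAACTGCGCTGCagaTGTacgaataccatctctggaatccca
Whether the whole cluster differed between the libraries cannot be told, because its other chemokine genes had too few reads to compare. Pf4, the platelet factor 4 gene, and Cxcl15 lie between Ppbp and Cxcl1 and were at 0 in both libraries, and Cxcl3, an ELR chemokine gene among them, had 5 counts untreated and 4 after PTH.

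Beyond Cxcl2 the chromosome carries Mthfd2l, a folate enzyme gene, and then genes of EGF receptor ligands. Mthfd2l had 1126 and 1468 counts, a ratio of 1.27 (1.17 to 1.37), and was not past the rule. Ereg, the epiregulin gene, had 4033 and 3685 counts, a ratio of 0.887 (0.848 to 0.928), and was not past it either. Between Mthfd2l and Ereg, Epgn, the epigen gene, had 10 counts untreated and none after PTH, too few to compare. Gm19610, an antisense gene, had 59 and 25 counts, a ratio of 0.411 (0.247 to 0.667). Exons of Ereg on the other strand cover 34.6% of the exonic bases of Gm19610, so some of these reads may belong to Ereg. Areg, the amphiregulin gene, starts 233.7 kb beyond Cxcl2 and had 19 and 207 counts, a ratio of 10.6 (6.61 to 17.9). Btc, the betacellulin gene, had no counts untreated and 4 after PTH. Of these 6 genes beyond Cxcl2, Epgn and Btc were too low to compare, and of the rest Areg alone was past the rule. Over all compared rows, 5.39% had more reads past the rule and 8.93% were past it in either direction.

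**Figure D2:**
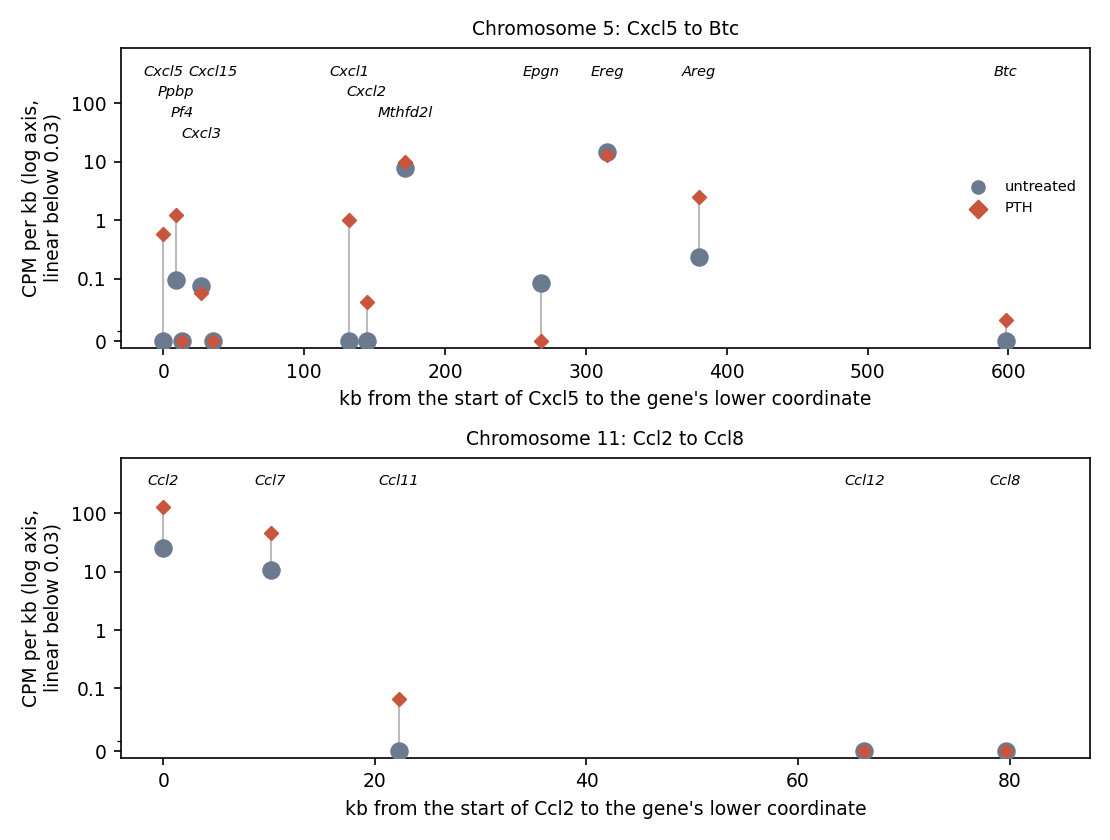
Level of the protein-coding genes along the chromosome 5 chemokine cluster and its neighbours (top) and the chromosome 11 cluster (bottom), as CPM per kb of transcript, against distance in kb from the start of Cxcl5 or Ccl2. Circles are the untreated and diamonds the PTH library, 1 library each, on an axis that is logarithmic above 0.03. Cxcl5, Ppbp, Cxcl1 and Areg stand higher with PTH on chromosome 5, and Ccl2 and Ccl7 on chromosome 11, while Pf4, Cxcl15, Ccl12 and Ccl8 are at 0 in both libraries.

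Cxcl1 and Cxcl2 are adjacent ELR chemokine genes, and the sequence before their starts is shown from 250 to 31 bases upstream. The 3 counts of Cxcl2 were too few to say whether it differed between the libraries as Cxcl1 did. Of the 10 genes, 6 have an entry in the RefSeq promoter table used (GRCm38.p6), and Ccl2, Ccl7, Cxcl5 and Cxcl16 do not. Both stretches lie on the plus strand, Cxcl1 at chr5:90890995-90891214 and Cxcl2 at chr5:90903649-90903868. Capitals mark each match to a searched motif.
Cxcl1: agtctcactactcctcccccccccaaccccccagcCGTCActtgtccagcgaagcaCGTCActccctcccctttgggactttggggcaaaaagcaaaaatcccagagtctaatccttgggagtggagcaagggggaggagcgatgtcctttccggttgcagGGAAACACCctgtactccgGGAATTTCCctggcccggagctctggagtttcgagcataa
Cxcl2: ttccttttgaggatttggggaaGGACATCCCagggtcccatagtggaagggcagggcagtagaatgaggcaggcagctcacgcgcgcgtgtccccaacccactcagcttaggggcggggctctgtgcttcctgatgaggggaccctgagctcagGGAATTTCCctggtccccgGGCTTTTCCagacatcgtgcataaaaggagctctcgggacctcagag

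The motifs were searched on both strands of windows of 300 bases, 250 before and 50 after each start, in 32851 promoters. The pattern GGNNNTTCC, a form of the NF-kappaB site, was in 18.5% of all promoters and in 4 of the 6 of these chemokine genes, Ccl20, Cx3cl1, Cxcl1 and Cxcl2. The letters GGAATTTCC stood at positions -70 to -62 from the start of Cxcl1 and at -96 to -88 from that of Cxcl2. A second NF-kappaB-type pattern, GGGANNTCC, was in 4.30% of all promoters and in Cxcl2 alone of the 6. The core of the cyclic AMP response element, TGACG, was in 20.8% of all promoters and in 2 of the 6. It stood at 2 places in Cxcl1 (as CGTCA, at -215 to -211 and -194 to -190) and at 1 place in Cxcl12. The full element TGACGTCA, which overlaps that core, was in 1.79% of all promoters and in none of the 6, as was the AP-1 motif TGANTCA, at 7.81% of all. The C/EBP-type pattern TTGCNNAA, at 10.8%, was in none of the 6. The STAT-type pattern TTCNNNGAA was in 8.30% of all and in Cxcl14 of the 6, and the TATA box letters TATAAA in 13.6% of all and in Cx3cl1. In Cx3cl1 they stood at -6 to -1, directly before the start used, and whether they act as a TATA box was not tested. These matches describe letters in a window and are not measured binding.

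Cxcl12 encodes stromal cell-derived factor 1, and of the 10 genes it had the most counts in both libraries. It had 22558 counts untreated and 20992 after PTH, or 335.9 and 303.6 CPM, a ratio of 0.904 (0.887 to 0.921). Its interval lay below 1 but well inside the rule of size. The gene is at chr6:117168535-117181367 on the plus strand and shares no exonic sequence with another gene. The table gives 1 count per gene, so its 3 annotated coding transcripts cannot be told apart.

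Cx3cl1 and Cxcl16 encode the chemokines that are made as membrane proteins and released by cleavage. Cx3cl1, the fractalkine gene (chr8:94772009-94782427, plus strand), had 4949 counts untreated and 6097 after PTH, or 73.7 and 88.2 CPM, a ratio of 1.196 (1.15 to 1.24). Its neighbours are chemokine genes too, and Ccl22 was at 0 in both libraries while Ccl17 had 44 and 73 counts, a ratio of 1.61 (1.09 to 2.40). Cxcl16 (chr11:70453983-70459984, minus strand) had 37 and 62 counts, a ratio of 1.63 (1.07 to 2.52). Exons of Zmynd15, which runs the other way, cover 18.3% of the exonic bases of Cxcl16, so some of these reads may belong to that gene. None of the 3 was past the rule, and the counts of Cxcl16 and Ccl17 were too low to place their ratios on one side of 1.5. Cxcl14, the last CXC gene of the 10, was at 0 in both libraries.

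Because of Ccl2 and Ccl7, the make-up of the chemokine RNA differed between the libraries. The 10 genes together had 29530 counts untreated and 37088 after PTH, 439.8 and 536.3 CPM, a ratio of 1.22 (1.201 to 1.238). Ccl2 and Ccl7 held 6.73% of these counts untreated (exact binomial 6.44 to 7.02) and 26.4% after PTH (26.0 to 26.9). Cxcl12 held 76.4% (75.9 to 76.9) and 56.6% (56.1 to 57.1), and Cx3cl1 16.8% (16.3 to 17.2) and 16.4% (16.1 to 16.8). Cxcl1, Cxcl2 and Cxcl5 together held 0.361% after PTH (0.303 to 0.428).

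Levels can be compared between genes only per length. Per kb of the principal transcript, Cxcl12 stood at 107.3 CPM per kb untreated, Ccl2 at 25.8, Cx3cl1 at 22.2 and Ccl7 at 10.8. After PTH, Ccl2 stood at 128.8, Cxcl12 at 96.9, Ccl7 at 46.2 and Cx3cl1 at 26.6 CPM per kb. By this measure Ccl2 passed Cxcl12, and Ccl7 passed Cx3cl1. Both orders depend on the transcript used. The coding transcripts of Cx3cl1 run from 377 to 3315 bases and those of Cxcl12 from 1878 to 5627. With the shortest of the latter the level of Cxcl12 after PTH was 161.6 CPM per kb, above Ccl2, and with the longest 54.0. Per kb of all annotated exons, Cx3cl1 (18.8) was just above Ccl2 (18.4) in the untreated library. By the same measure Ccl2 stood first (92.0), Ccl7 next (46.2) and Cxcl12 below both (37.1) after PTH.

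**Figure D3:**
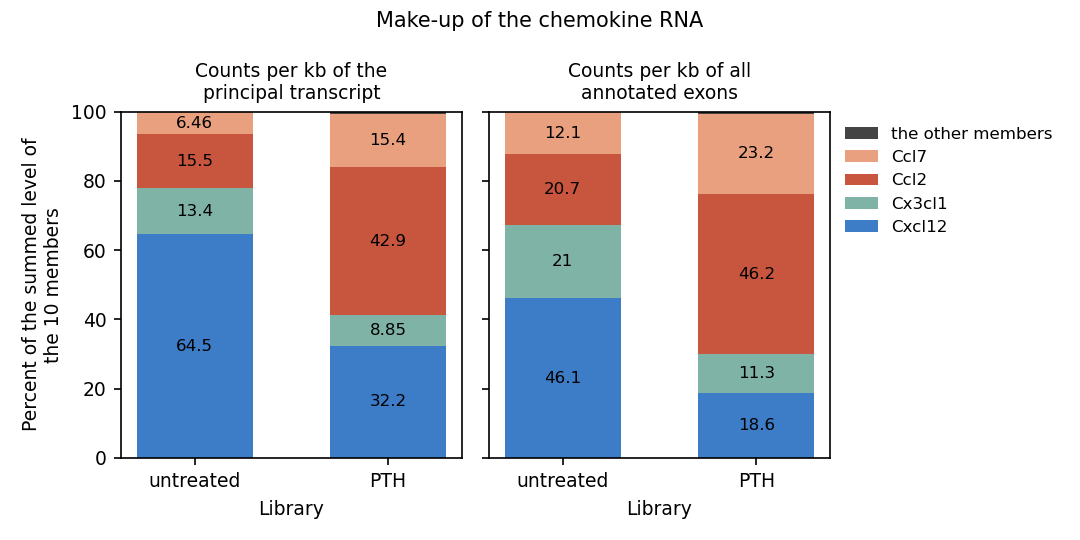
Share of each chemokine gene in the summed level of the 10, per kb of the principal transcript (left) and per kb of all annotated exons (right), in the untreated and PTH libraries, 1 library each. On the left, Cxcl12 takes 64.5% untreated and 32.2% with PTH, and Ccl2 15.5% and 42.9%. On the right, the share of Cxcl12 is 46.1% and 18.6%, and that of Ccl2 20.7% and 46.2%.

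Among 28 other chemokine ligand genes by symbol, on 32 rows, 7 rows were compared. Past the rule, 1 had more reads (Ppbp) and 1 had fewer (Ccl28), and 5 were not past it. Over all compared rows, 5.39% had more reads and 3.54% fewer past the rule. The median of the log2 ratios was 0.68, against 0.00 over all compared rows. Ccl28, a mucosal chemokine gene, had 21 counts untreated and none after PTH, and at 10 to 49 untreated counts 278 rows were listed at 0 after PTH and 3156 were not, so a 0 was more frequent at its count than at those of Cxcl1 and Cxcl5. Ccl25, a thymic and gut chemokine gene with the most reads of this group, had 396 and 533 counts, a ratio of 1.31 (1.15 to 1.49). Exons of Elavl1 on the other strand cover 2.74% of the exonic bases of Ccl25. The interferon-responsive Cxcl10 had 12 and 22 counts, a ratio of 1.78 (0.844 to 3.95). In all, 19 of the 32 rows were at 0 in both libraries, those of Ccl3, Ccl4 and Cxcl9 among them. That is close to the share in the whole table, where 31960 of 55487 rows were at 0 in both. Extra rows of Ccl19, Ccl21a and Ccl27a were among the 19, while another row of Ccl27a had 35 and 71 counts. Ccl25 and Cxcl10, like Cxcr4 and Ackr4 below, were picked for mention after their values were seen.

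The receptors through which the 10 chemokines signal were mostly not seen in these cells. Ccr2 (for CCL2 and CCL7), Ccr6 (for CCL20), Cxcr2 (for the ELR chemokines) and Cx3cr1 (for CX3CL1) were at 0 in both libraries. By counting error a 0 allows 3 counts, which would be 0.0447 CPM untreated and 0.0434 after PTH, but rows with far more counts in one library are listed at 0 in the other here, so this limit is too low. Cxcr4, the signalling receptor of CXCL12, had 67 and 53 counts, a ratio of 0.768 (0.525 to 1.12). Cxcr6, the receptor of CXCL16, had 33 and 6 counts, a ratio of 0.177 (0.0605 to 0.427), past the rule with fewer reads after PTH. Both were low, at under 1 CPM.

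Of the 23 receptor genes, 6 were compared, and past the rule 3 of these had more reads after PTH and 1 had fewer. Over all compared rows these shares were 5.39% and 3.54%. The median of the receptors' log2 ratios was 0.90. Ackr3, the atypical receptor that takes up CXCL12 and removes it from the surroundings, had 1097 counts untreated and 6911 after PTH, or 16.3 and 99.9 CPM. It was 6.12-fold higher (5.74 to 6.53), and its factor was 1.22 times that of Ccl2 (1.12 to 1.33). The gene is at chr1:90203980-90216751 on the plus strand and shares no exonic sequence with another gene. There were 0.0486 Ackr3 reads per Cxcl12 read untreated and 0.329 after PTH, a ratio of 6.77 (6.34 to 7.24). Ackr4, the atypical receptor of CCL19, CCL21 and CCL25, had 2553 and 2680 counts, a ratio of 1.02 (0.965 to 1.08). Exons of Acad11 on the other strand cover 8.90% of the exonic bases of Ackr4, so some of these reads may belong to Acad11. The 2 atypical receptors thus differed from each other, with a ratio of ratios of 6.001 (5.52 to 6.53).

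Ccr10, the receptor of CCL27 and CCL28, had 13 and 56 counts, a ratio of 4.18 (2.26 to 8.34), and lost the call with the interval widened for a coefficient of variation (CV) of 0.3 between cultures (lower bound 1.46). Ccrl2, which binds chemerin, had 7 and 26 counts, a ratio of 3.61 (1.53 to 9.84), and fell short of the rule with total-count scaling (lower bound 1.49) and with upper-quartile scaling, and with a CV of 0.2 (1.28) or 0.3. Both genes were under 1 CPM in each library. Ackr1 and Ackr2, the atypical receptors of inflammatory chemokines, were at 0 in both. Pth1r, the receptor of PTH itself, had 5709 and 4721 counts, a ratio of 0.803 (0.773 to 0.835).

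**Figure D4:**
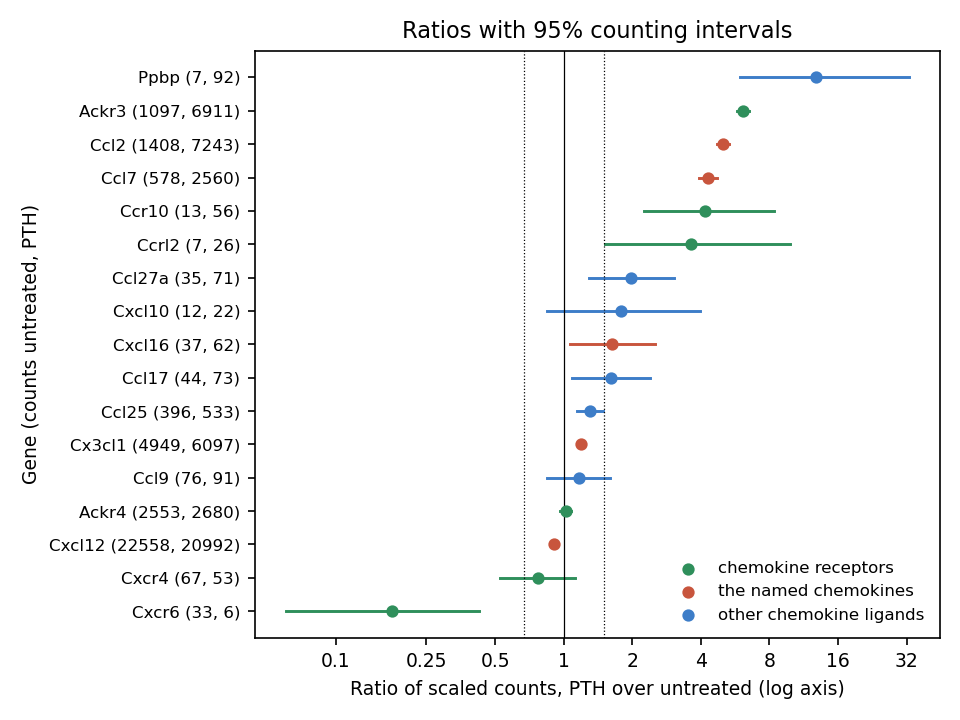
Ratio of scaled counts, PTH over untreated, on a logarithmic axis with its 95% counting interval, for chemokine and receptor genes above 0 in both libraries with 20 or more counts in all. The counts of each gene are in brackets, and the dotted lines mark 1.5-fold either way. The intervals of Ppbp, Ackr3, Ccl2, Ccl7, Ccr10 and Ccrl2 lie above 1.5, that of Cxcr6 below, and those of Cxcl12 and Cx3cl1 close to 1.

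Among genes that release, trim or anchor chemokines, none was past the rule, against 8.93% of all compared rows in either direction. The 6 compared genes for proteases that cut chemokines had a median of 0.01 on the log2 scale. The lowest ratio was that of Mmp9, with 60 and 33 counts, at 0.534 (0.338 to 0.830). Its counts were too low to place the ratio on one side of the rule. Mmp2 and Mmp14, matrix metalloproteinase genes with the most reads of the group, were at ratios of 1.09 (1.08 to 1.11) and 1.08 (1.06 to 1.09). Adam10 and Adam17, whose products shed CX3CL1 and CXCL16 from the membrane, were at 1.05 (1.02 to 1.09) and 0.871 (0.831 to 0.912). Dpp4, which encodes a peptidase that inactivates CXCL12, was at 0 in both libraries. Heparan sulfate chains hold chemokines at the cell surface, and 19 genes for their core proteins and enzymes had ratios from 0.693 to 1.19, with a log2 median of 0.07. Gpc1, a glypican gene, was at 1.17 (1.16 to 1.19) and Hspg2, the perlecan gene, at 1.07 (1.06 to 1.08).

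Chemokine mRNAs are short-lived, and proteins that bind AU-rich elements set how fast they decay. The list held 11 genes of mRNA stability regulators, not all of which act through AU-rich elements. Of these, 2 had more reads after PTH past the rule and 9 were not past it. Over all compared rows, 5.39% had more reads past the rule. The log2 median of the 11 was 0.05. Zfp36, which encodes the decay factor tristetraprolin, had 3845 and 7165 counts, a ratio of 1.81 (1.74 to 1.88). Its relative Zfp36l1 had 3682 and 7424 counts, a ratio of 1.958 (1.88 to 2.04), but exons of Gm26669 on the other strand cover 55.9% of its exonic bases, so its reads are uncertain. Zfp36l2, the third of the family and the one with most reads of the 11, had 64149 and 45134 counts, a ratio of 0.683 (0.675 to 0.692), and was not past the rule. The list as a whole summed to 1900 CPM untreated and 1690 after PTH. Neither Zfp36 nor Zfp36l1 stayed past the rule with an interval widened for a CV of 0.2.

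The cytokines that classically switch on these chemokines were not seen. Il1a, Il1b, Tnf, Il17a and Ifng were at 0 in both libraries. Of 12 compared receptor and adaptor genes for such signals, 1 had more reads past the rule and 11 were not past it, a share near the 5.39% with more reads and 8.93% in either direction over all compared rows. The log2 median was 0.09. Il1r1, the signalling receptor of interleukin 1, had 3665 and 9794 counts, a ratio of 2.60 (2.50 to 2.70), and lost the call when the interval was widened for a CV of 0.2 (lower bound 1.49). Tnfrsf1a, the main TNF receptor gene, was at 1.08 (1.05 to 1.11).

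The cell type named in the labels was checked against markers, since blood and vessel cells are rich sources of chemokines. All 8 osteoblast markers had enough reads to compare. Sp7, the osterix gene, had 4583 and 1974 counts, a ratio of 0.418 (0.397 to 0.441). It was the 1 marker of the 8 past the rule, against 3.54% of all compared rows with fewer reads and 8.93% in either direction. The other 7 were not past the rule. Runx2 (1.03), Col1a1 (1.05), Spp1 (0.952), Alpl (1.02), Ibsp (0.774) and Pth1r (0.803) were among them. Bglap was low, with 57 and 87 counts (0.849 and 1.26 CPM), a ratio of 1.48 (1.05 to 2.11). All 5 lymphocyte markers and all 4 neutrophil markers were at 0 in both libraries. Of 8 macrophage and osteoclast markers, 4 were compared and none was past the rule, against 8.93% of all compared rows in either direction. Ptprc, Adgre1 and Itgam were at 0 in both libraries, while Csf1r had 122 and 155 counts and Cd68 had 67 and 57. Lyz2 had 201 and 338 counts, a ratio of 1.63 (1.37 to 1.95). The whole list summed to 90.0 CPM untreated and 101.4 after PTH, of which Ctsk, which osteoblastic cells can also express, gave 84.2 and 93.3. The endothelial list, with Cdh5 and Kdr at 0, summed to 1.057 and 1.34 CPM, and the adipocyte list, with Adipoq, Plin1 and Lpl at 0, to 0.685 and 0.795 CPM. Whether other cells had a part in the chemokine differences was not tested.

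**Figure D5:**
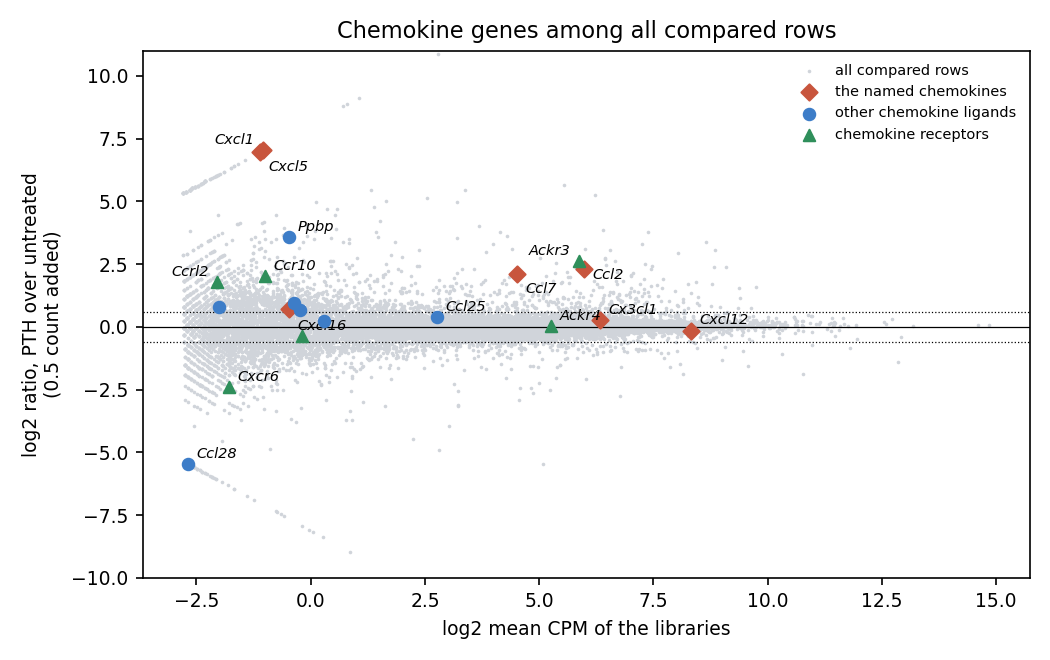
Log2 ratio of scaled counts (PTH over untreated, 0.5 count added) against log2 mean CPM, not divided by length, for the 16408 compared rows (grey), with the 10 chemokines (diamonds, 7 of them compared), other chemokine ligands (circles) and chemokine receptors (triangles). Dotted lines mark 1.5-fold. Ccl2, Ccl7 and Ackr3 stand above the band of rows at their level, Cxcl12, Cx3cl1 and Ackr4 lie within it, and Cxcl1 and Cxcl5 lie on the line of rows listed at 0 untreated.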

How the data were processed

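RNA was measured in 2 libraries of MC3T3-E1 cells, 1 untreated and 1 given PTH. The authors deposited 1 table of whole-number counts per gene, not normalised. Reads were aligned with HISAT2 to mm10, per the submitters' processing notes. The sources used here name no counting tool, annotation or use of strand, and do not say whether counts are of reads or were derived from coverage, nor whether the libraries came from separate cultures. Genes on opposite strands that overlap cannot be told apart.

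Groups came from the labels, and the PTH library was compared with the untreated one. Counts were scaled by edgeR 4.0.16 TMM effective library sizes (R 4.3.3) over rows with a total of 20 or more counts. With 1 library per group, a quasi-likelihood fit in edgeR has no residual degrees of freedom and was not possible. Ratios carry 95% exact conditional (Clopper-Pearson) intervals (Python 3.11.15, scipy 1.17.1). Their calculation was run on simulated counts with counting error only, which cannot show whether they hold for these data. The intervals and the limit of 3 counts for a 0 cover counting error only, and reads copied by PCR are not independent. Intervals of ratios of ratios use a normal approximation on the log scale. Log2 ratios add 0.5 count. Genes were matched to GENCODE M21 by Ensembl identifier (55141 of 55487 rows).

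The chemokines and lists were chosen with earlier results of these data known. Text names all 10 chemokines. From each other list it names up to 4 genes past the rule per direction, those with the bound nearest 1 farthest from it, or, with under 2 such genes, the 2 of highest count. Neighbours are named by position and receptors of the 10 by ligand. Genes at 0, markers and the other genes in the text are examples picked with values known. Alternatives were other scalings (DESeq2 1.42.0 size factors among them), count filters, widened intervals, a fold limit of 2 and 5 counts added.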

Additional observations from a re-analysis of the deposited data

How the results depend on the processing

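Ccl2, Ccl7 and Ackr3 stayed past the rule of size under total-count, DESeq2 and upper-quartile scaling, filters of 1 and 100 counts and intervals widened for a CV of 0.2 or 0.3, and no gene's ratio or log2 ratio recomputed changed direction. The median of the protease list moved from 0.01 to -0.03 with total-count scaling, -0.02 with upper-quartile scaling and -0.06 with a filter of 1 count. Total-count scaling moved the median log2 ratio of all rows to -0.035. With a filter of 100 counts, which leaves fewer genes tested, the count past the rule was 2 of the 4 chemokines compared, 0 of 4 other ligands, 1 of 3 receptors and 850 of 13079 rows. Over rows above 0 in both libraries it was 2 of 5 chemokines and 1 of 6 other ligands. With the CV of 0.2 it was 0 for the mRNA stability genes, 0 for the inducing cytokine and receptor genes and 741 for all rows. With 0.3 it was 2 receptors, 0 in each of those lists and 499 rows. A fold limit of 2 gave 0 mRNA stability genes and 779 rows, and a filter of 1 count 2369 rows, against 1465 of 16408. No paired analysis was possible because each group had 1 library. Depth limits Cxcl16, Cxcl2, Ccrl2 and Cxcr6, and the variation between cultures is unknown.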
